A study of Homo sapiens with 34 samples.

Results

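The genes described here encode 10 proteins that platelets and their precursors, the megakaryocytes, are known for: ITGA2B, ITGB3, GP1BA, GP1BB, GP9, PF4, PPBP, TUBB1, SELP and PLEK. They were chosen by name, with earlier results of these data known, and are 10 of the 20255 genes in the deposited table. The data are RNA sequencing of H1, an established line of human embryonic stem cells, in a planar differentiation to blood that received no haematopoietic cytokine. The 34 samples were 1 sample of undifferentiated, untreated H1 cells and 3 replicates of each of 11 populations. The labels give BMP4+hVEGF as the treatment of the day 0 embryoid bodies and hVEGF alone for every later population. Unsorted cells were taken on days 0, 2 and 4. On days 6, 9 and 12 the cells were sorted into CD43- and CD43+ cells, CD43 being a surface glycoprotein of blood cells. On day 16 they were sorted into CD43-CD45- and CD43+/CD45+ cells, called day 16 CD43- and CD43+ cells here, CD45 being a surface phosphatase of white cells and their progenitors. Day 16 thus differed from earlier days in the sort as well. In any comparison of day 16 with an earlier day, day and sort cannot be told apart. All samples come from a single cell line, and the replicates are described as independent. No population was sorted for megakaryocytes, so in these bulk samples fewer cells of a type and less RNA per cell cannot be told apart.

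Megakaryocytes are large marrow cells that release platelets from long cytoplasmic extensions. Platelets stick to a wounded vessel through the glycoprotein Ib-IX complex, which binds von Willebrand factor, and stick to each other through the integrin alphaIIb beta3, which binds fibrinogen. When activated they empty alpha-granules, which hold chemokines, growth factors and adhesive proteins and carry P-selectin in their membrane. In the genes measured here, ITGA2B (CD41) and ITGB3 (CD61) encode the integrin. GP1BA (CD42b), GP1BB and GP9 (CD42a) encode subunits of the von Willebrand factor receptor. PF4 and PPBP encode the chemokines of the alpha-granule, SELP encodes P-selectin, TUBB1 the beta-tubulin of the platelet's microtubule ring, and PLEK the protein kinase C substrate pleckstrin.

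A value in these data is the authors' tag count after normalization for GC content and between samples. Sorted by size, the values were the same in all 34 samples, with a median of 197 and a highest value of 90700, so a value gives the place of a gene within its sample, and the sequencing depth is unknown. Values were compared as log2(value + 1) with limma, and a gene was called at an adjusted p below 0.05 and a fold change above 4. All 10 genes were among the 19788 genes tested. The sort was checked on SPN, which encodes CD43: its values were 18 to 49 in CD43- cells of days 6 and 9 and 5979 to 9460 in CD43+ cells of those days. PTPRC, which encodes CD45, stood at 0 to 8 in day 6 CD43+ cells, at 634 to 749 on day 9 and at 6920 to 15868 on days 12 and 16.

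The genes lie on 7 chromosomes (GRCh38, coordinates of the deposited table). ITGA2B is at chr17:44372180-44389505 on the minus strand, ITGB3 at chr17:47253846-47311816 on the plus strand and GP1BA at chr17:4932297-4935030 on the plus strand. GP1BB is at chr22:19722945-19724771 and GP9 at chr3:129060767-129062406, both on the plus strand. PF4 at chr4:73981077-73982124 and PPBP at chr4:73987038-73988197 are neighbours on the minus strand in the cluster of CXC chemokine genes. TUBB1 is at chr20:59019254-59026654 on the plus strand, SELP at chr1:169588849-169630193 on the minus strand and PLEK at chr2:68365173-68397453 on the plus strand.

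The promoters of 3 genes are shown because these genes differed in the day 6 comparison of CD43+ with CD43- cells. GP9 was called there, and PPBP and SELP were not. In day 6 CD43+ cells GP9 and SELP stood alike, at 1.77% and 1.9% of their own highest population means, and PPBP at 0.0105%. The RefSeq windows run from 250 bases before to 50 bases after the start of the gene (GRCh38.p14, printed 5′ to 3′ on the strand of the gene), and held an entry for 7 of the 10 genes. GP9 is chr3:129060529-129060828, PPBP chr4:73988141-73988440 and SELP chr1:169630075-169630374. Capitals mark any match, on either strand, to AGATAA or TGATAA (forms of the GATA motif) or CGGAAG (a form of the ETS motif). They also mark such matches to TGTGGT (the RUNX motif) and TATAAA (the TATA box).
GP9: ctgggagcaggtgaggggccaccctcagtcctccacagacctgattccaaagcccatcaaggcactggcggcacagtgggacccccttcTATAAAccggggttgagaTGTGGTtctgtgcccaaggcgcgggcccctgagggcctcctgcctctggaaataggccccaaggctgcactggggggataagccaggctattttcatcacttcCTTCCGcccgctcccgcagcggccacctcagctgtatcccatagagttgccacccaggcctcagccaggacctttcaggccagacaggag
PPBP: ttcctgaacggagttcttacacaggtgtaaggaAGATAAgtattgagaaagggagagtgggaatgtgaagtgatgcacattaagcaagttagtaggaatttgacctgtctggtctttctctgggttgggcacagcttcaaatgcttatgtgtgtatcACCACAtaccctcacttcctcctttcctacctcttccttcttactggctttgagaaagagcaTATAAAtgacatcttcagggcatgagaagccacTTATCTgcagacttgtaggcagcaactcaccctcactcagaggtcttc
SELP: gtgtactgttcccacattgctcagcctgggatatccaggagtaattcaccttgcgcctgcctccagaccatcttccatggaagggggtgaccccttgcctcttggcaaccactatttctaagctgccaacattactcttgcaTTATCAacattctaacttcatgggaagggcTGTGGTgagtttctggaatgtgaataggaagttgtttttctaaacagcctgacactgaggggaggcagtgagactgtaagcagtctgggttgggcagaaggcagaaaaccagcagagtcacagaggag

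The RUNX letters TGTGGT were in 6 of the 7 windows (all but ITGA2B), against 13.1% of 35116 promoters of the same length. AGATAA or TGATAA was in the windows of PPBP and SELP only, 2 of 7, against 16.3% of all promoters. Other forms of the GATA and ETS motifs were not searched, so a window without a match may still hold one. CGGAAG was in those of GP1BB and GP9, against 19.5% of all promoters. TATAAA was in those of GP9 and PPBP, against 11.5%, and in PPBP it began 31 bases before the start. The matches are letters only and say nothing of binding. No matches overlapped each other in the printed windows.

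Before sorting, on days 0, 2 and 4, the genes stood near the bottom of their own ranges. ITGA2B was 260 in undifferentiated cells, 322, 204 and 188 on day 0, 68, 83 and 69 on day 2 and 62, 54 and 136 on day 4. No gene passed 1.75% of its own highest population mean on these days, a share that GP1BA had on day 4, and ITGA2B had 1.53% on day 0. GP1BA was 22 to 78, ITGB3 6 to 45 and PF4 0 to 24 in the 9 samples of these days. The other 6 genes did not pass 16 in any of them. From day 0 to day 2, PF4 was the only one of the 10 called, going from 12, 10 and 14 to a listed value of 0 in all 3 replicates (limma, adjusted p = 0.0019), where 3.48% of all genes were called lower. From day 2 to day 4, PF4 went to 16, 24 and 13 and SELP from 0 in every replicate to 4, 7 and 6, the only 2 of 10 called (adjusted p = 0.000548 and 0.0087), against 4.97% of all genes called higher. These calls rest on values near 0, and neither PF4 nor SELP was called with a pseudocount of 10.

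**Figure D1:**
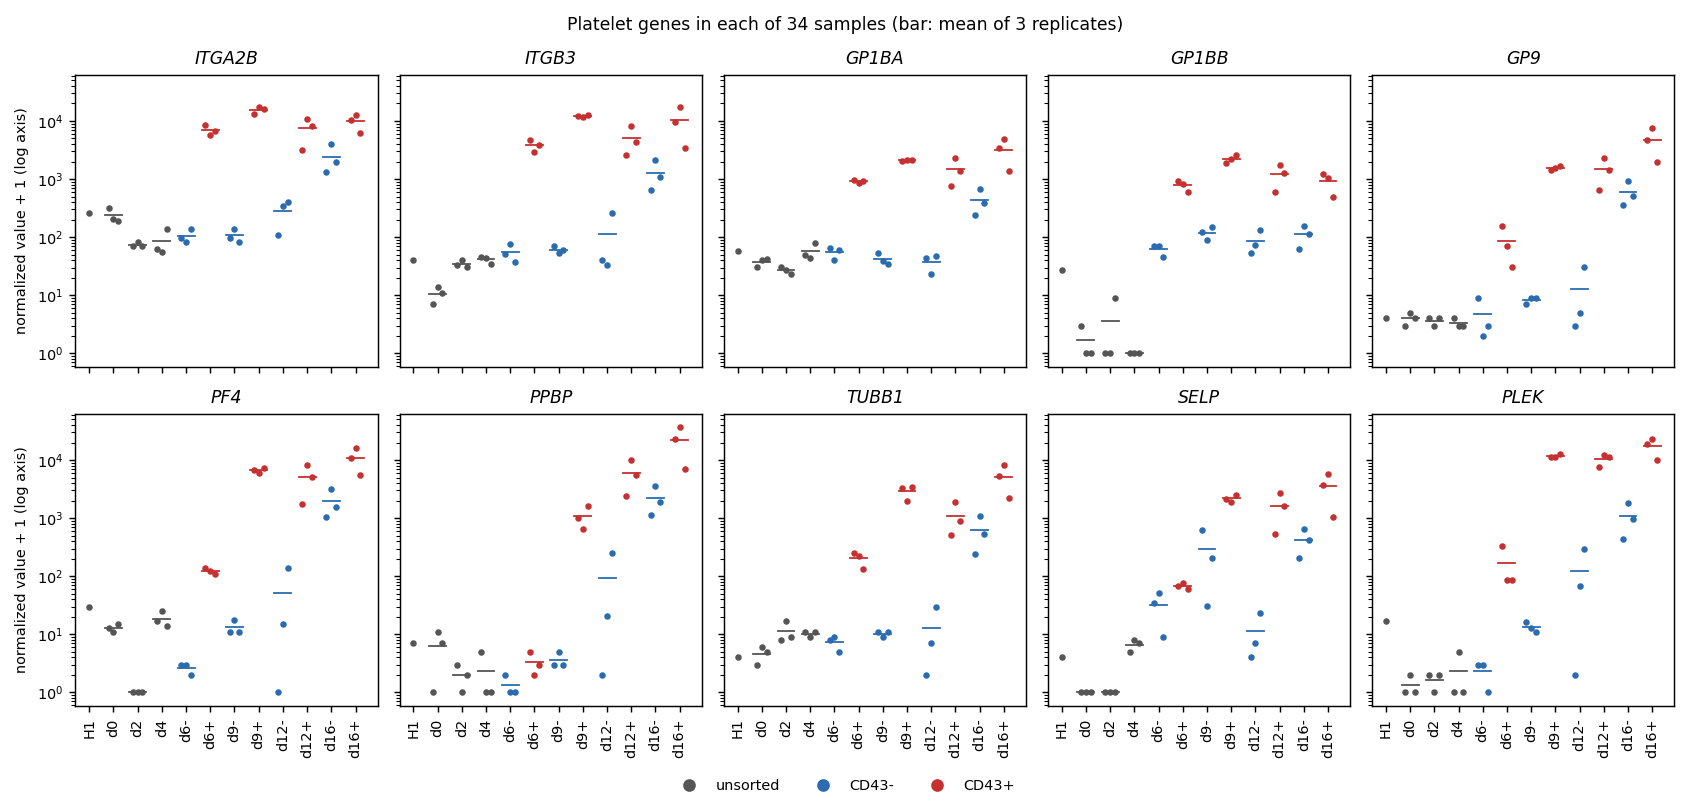
Normalized value + 1 (log axis) of each of the 10 genes in all 34 samples, with a bar at the mean of 3 replicates; H1 is the undifferentiated sample, d0 to d16 are days, and - and + are CD43- and CD43+ cells. In CD43+ cells of day 9, all 10 genes lie above every CD43- value of that day, and in day 16 CD43- cells 9 of the genes stand far above day 12.

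On day 6, 4 of the 5 receptor subunits already stood at 28.5% or more of their own highest population mean in CD43+ cells, while PF4, PPBP and SELP were at 1.9% or less of theirs. ITGA2B was 8678, 5703 and 6697 in CD43+ cells and 94, 80 and 136 in CD43- cells. ITGB3, its partner subunit, was 4610, 2896 and 3859 against 51, 76 and 36. The groups were far apart for both, by 6.09 ± 0.45 (log2 fold change ± SE, n = 3 each) for ITGA2B and 6.14 ± 0.57 for ITGB3 (adjusted p = 2.42e-11 and 1.37e-09). GP1BA, the subunit that binds von Willebrand factor, was 954, 842 and 939 against 64, 40 and 60. GP1BB, linked to it by disulphide bonds, was 921, 816 and 606 against 68, 69 and 44. GP9, which completes the complex, was lower against its own later level: 154, 69 and 30 in CD43+ cells and 8, 1 and 2 in CD43- cells. All 3 were called, with log2 fold changes of 4.06, 3.68 and 4.20, the last being 4.83 without day 6 CD43- replicate 1.

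Of the granule and cytoskeleton genes on day 6, PF4 was 138, 120 and 108 in CD43+ cells against 2, 2 and 1 in CD43- cells, TUBB1 253, 222 and 133 against 7, 8 and 4, and PLEK 325, 84 and 86 against 2, 2 and 0. These 3 were called as well (PLEK 6.01, and 5.37 without day 6 CD43+ replicate 1), so that 8 of the 10 genes were higher in day 6 CD43+ cells, where 4.68% of all genes were. The 2 that were not called were PPBP, at 4, 1 and 2 against 1, 0 and 0 (adjusted p = 0.331), and SELP, at 66, 74 and 60 against 34, 50 and 8 (adjusted p = 0.143). PPBP, the most abundant chemokine of the mature platelet, was thus near the bottom of the table in both populations. SELP was low in both, with the 3 CD43+ values above the 3 CD43- values. Against day 4, the same day 6 CD43+ cells had 9 of 10 genes called higher, all but PPBP, against 6.8% of all genes; GP1BB, listed at 0 in every day 4 replicate, was among them (adjusted p = 1.44e-12). PLEK differed from day 4 by 6.29, by 5.65 without day 6 CD43+ replicate 1 and by 7.07 without day 4 replicate 2.

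In CD43- cells of day 6, GP1BB was also called higher than on day 4 (adjusted p = 1.59e-08, 68, 69 and 44 from a listed 0), where 4.94% of all genes were called higher. PF4 was lower, at 2, 2 and 1 after 16, 24 and 13 (log2 fold change -2.79 ± 0.90, adjusted p = 0.013), where 2.77% of all genes were called lower. These were the 2 of 10 genes called between those populations. GP1BB shares 1006 of its exonic bases, 64.8%, with SEPT5 on the same strand in GENCODE v29, and all of them with the annotated readthrough gene SEPT5-GP1BB. How the authors' counting divided such reads is not stated. SEPT5 itself was 246, 274 and 345 in day 6 CD43- cells after 432, 414 and 390 on day 4.

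By day 9, all 10 genes were higher in CD43+ cells, against 8.65% of all genes, and no CD43+ value overlapped a CD43- value in any of them, as in 42.2% of all genes. The median log2 fold change of the 10 was 7.59, against 0.24 over all genes tested. PLEK showed the widest gap: 11186, 11498 and 12826 in CD43+ cells against 15, 12 and 10 (9.81 ± 1.01, adjusted p = 3.13e-09). PF4 followed, at 6818, 5906 and 7330 against 10, 17 and 10 (9.0 ± 0.90). ITGA2B was 13319, 17356 and 15858 and ITGB3 12010, 11506 and 12844, the highest mean of any population for both, at 15511 ± 2041 and 12120 ± 676 (SD, n = 3). The replicates lay close together in these cells: for 9 of the 10 genes, all but PPBP, the highest was less than 2 times the lowest.

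The genes differed in how much of their rise came between day 6 and day 9. Within CD43+ cells, 6 of 10 were called higher on day 9 than on day 6, against 3.56% of all genes: PPBP (log2 fold change 8.36 ± 1.08), PLEK (6.46), PF4 (5.77), SELP (5.01), GP9 (4.47) and TUBB1 (3.85). Without day 6 CD43+ replicate 1 PLEK differed by 7.1, and without day 6 CD43+ replicate 3 GP9 differed by 3.88. ITGB3 and GP1BA differed by 1.70 and 1.22 (adjusted p = 0.0236 and 0.019), below the fold required, and ITGA2B and GP1BB by 1.16 and 1.52 (adjusted p = 0.0532 and 0.0538). So the 4 receptor genes that were at 28.5% to 45.3% of their own highest population mean on day 6 were not called, and the 6 genes called had been at 0.0105% (PPBP) to 3.9% (TUBB1). A gene at 28.5% or more of its highest mean has little room for a fold change above 4. This split therefore restates the day 6 levels and is no separate result. GP9 went with the granule genes here and not with GP1BA and GP1BB, at 1.77% of its highest mean on day 6. The gap between CD43+ and CD43- cells was then set on day 9 against day 6 in an interaction test, where its gain was called for PPBP (6.86), GP9 (3.33) and TUBB1 (3.32), 3 of 10, against 3.21% of all genes. For PLEK and PF4 the gains of 3.80 and 3.46 missed the threshold (adjusted p = 0.0638 and 0.0582). With a pseudocount of 0.1, neither PPBP (5.35, adjusted p = 0.124) nor GP9 (3.01, adjusted p = 0.052) was called. Without day 6 CD43+ replicate 3, GP9 was not called (2.75, adjusted p = 0.0568), and its gain was 2.71 without day 6 CD43- replicate 1. PLEK was called without day 6 CD43+ replicate 1 (4.44) or day 6 CD43- replicate 3 (4.33); SELP, at 2.35, was called without day 9 CD43- replicate 1 (3.35).

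**Figure D2:**
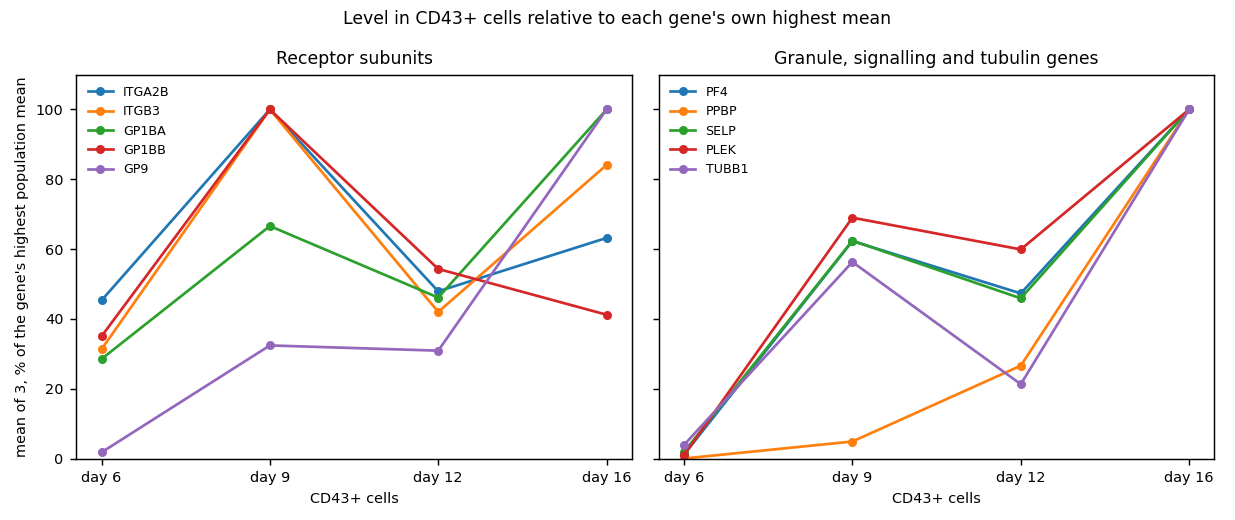
Mean of 3 CD43+ replicates on days 6, 9, 12 and 16 as a percent of the highest population mean of the same gene; receptor subunits left, the other genes right. On day 6 ITGA2B stands at 45.3%, ITGB3 at 31.3%, GP1BA at 28.5% and GP1BB at 35%, and all other genes at 3.9% or less; on day 9 PPBP is still at 4.88%.

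SELP was the exception among CD43- cells. It was 636, 30 and 205 in day 9 CD43- cells, after 34, 50 and 8 on day 6 and before 3, 6 and 22 on day 12. The fall from day 9 to day 12 was called (log2 fold change -4.21 ± 0.80, adjusted p = 0.000193), the only one of 10 genes, where 2.8% of all genes were called lower; fitted on those populations alone it was not called (adjusted p = 0.0927). With 1 replicate left out it ran from -5.39 (without day 9 CD43- replicate 2) to -3.21 (without day 9 CD43- replicate 1), and it also moved by over 1.5 times without day 12 CD43- replicate 3. The earlier rise passed the threshold (2.66 ± 0.80, adjusted p = 0.042), against 1.1% of all genes called higher, but the values of the 2 days overlapped. It was not called without day 6 CD43- replicate 1 (2.90) or 3 (1.92) or day 9 CD43- replicate 1 (1.66) or 3 (2.48), was 3.84 without day 9 CD43- replicate 2, and was not called in a fit of only the populations compared (adjusted p = 0.402). P-selectin is also stored in the Weibel-Palade bodies of endothelial cells. The summed value of 11 endothelial markers was 102712, 63530 and 72778 in the same 3 day 9 CD43- replicates, in the same order as SELP. None of the 11 was at 0 in all replicates. The macrophage (2078, 702 and 1097), mast cell and eosinophil (258, 157 and 242) and pluripotent sums (3613, 2971 and 3574) shared that order. The erythroid (1489, 1330 and 961), neutrophil granule (73, 100 and 73) and mesenchymal sums (247552, 269146 and 301825) did not. The endothelial sums of CD43- cells were in another order than SELP on day 6 (157410, 108803 and 43793) and day 12 (51479, 61445 and 45652). On day 16 (70345, 84989 and 84809) the order was the same. The part of endothelial cells in the SELP values was not tested. Between CD43+ and CD43- cells of day 9, SELP differed by 3.77, by 4.77 without day 9 CD43- replicate 1 and by 2.59 without day 9 CD43- replicate 2. The CD43- level of SELP was 13.2% of the CD43+ level on day 9, where the other 9 genes stood between 0.104% (PLEK) and 5.34% (GP1BB).

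On day 12, all 10 genes remained higher in CD43+ than in CD43- cells, against 11.8% of all genes, with log2 fold changes from 3.78 (GP1BB) to 8.38 (PF4) and a median of 7.14. All 10 calls held with any 1 replicate left out, but the sizes moved. Without day 12 CD43- replicate 1, PF4 differed by 6.54, PLEK by 6.17, PPBP by 6.12, TUBB1 by 6.07 and GP9 by 6.69. Without day 12 CD43- replicate 3, the highest of its group, PF4 differed by 10.09, PLEK by 9.77, PPBP by 9.61, GP9 by 8.38, TUBB1 by 8.0, SELP by 7.96 and ITGB3 by 6.96. Without day 12 CD43+ replicate 1, PF4 differed by 9.01 and SELP by 7.92. The CD43+ cells themselves spread widely. ITGA2B was 3207, 10832 and 8272, PF4 1752, 8272 and 5193 and SELP 528, 2716 and 1600. Replicate 1 was the lowest of the 3 and replicate 2 the highest in all 10 genes. In the whole table replicate 1 was the lowest in 38.4% of genes and replicate 2 the highest in 28.1%. Replicate 1 stood at 24.5% to 65.8% of the mean of the others, with PLEK closest. The summed value of 14 erythroid markers followed the same order (10665, 27765 and 18659), and that of 10 macrophage markers was highest where the platelet genes were lowest (102755, 34080 and 27540). No gene of the erythroid or macrophage list was at 0 in all 3 replicates. The order of the platelet genes was also that of the mast cell and eosinophil (31018, 63321 and 63116), endothelial (6238, 8502 and 6871) and pluripotent sums (801, 1168 and 1052). The neutrophil granule (284324, 284558 and 312840) and mesenchymal sums (24534, 21446 and 46402) had another order. The part of these cell types in the spread was not tested.

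Between day 9 and day 12 none of the 10 genes was called in CD43+ cells, where 15.0% of all genes were called in either direction. At an adjusted p below 0.05 alone, ITGA2B (-1.22), ITGB3 (-1.41) and TUBB1 (-1.57) were lower. PPBP went the other way, from 999, 652 and 1616 to 2369, 9888 and 5552, without overlap (log2 fold change 2.32 ± 1.08, adjusted p = 0.0704). TUBB1, from 3320, 1972 and 3484 to 513, 1908 and 894, was called without day 12 CD43+ replicate 2 (-2.06, adjusted p = 0.0164). The summed erythroid markers were 197165 to 342361 in the day 9 replicates and, as given above, 10665 to 27765 on day 12.

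By day 16, CD43+ cells held the highest mean of 7 of the genes: GP1BA, GP9, PF4, PPBP, TUBB1, SELP and PLEK. PPBP reached 22818, 37170 and 6913. Against day 9, PPBP was the only one called (log2 fold change 4.15 ± 1.08, adjusted p = 0.00183, and 4.84 without day 16 CD43+ replicate 3), 1 of 10, where 7.82% of all genes were called higher. GP9 was 4777, 7478 and 2000, all above its 3 day 9 values of 1411, 1536 and 1670, with a difference of 1.43 ± 0.67 (adjusted p = 0.0689). GP1BB was 1244, 1030 and 480 after 1921, 2172 and 2596 on day 9, a difference of -1.38 ± 0.59 (adjusted p = 0.0496) that did not reach the fold required. GP5, the remaining subunit of the complex, chosen after its values were seen, was 484, 424 and 596 on day 9 and 343, 478 and 182 on day 16. Against day 12, TUBB1 alone was called, from 513, 1908 and 894 to 5310, 8076 and 2192 (2.25 ± 0.65, adjusted p = 0.00676), against 3.79% of all genes called higher. That call was lost without day 12 CD43+ replicate 1 (1.80) or without day 16 CD43+ replicate 2 (1.83), and GP9, at 1.69, was called without day 12 CD43+ replicate 2 (2.12) or day 16 CD43+ replicate 3 (2.22).

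Here too 1 library stood below the others: day 16 CD43+ replicate 3 was the lowest in all 10 genes, against 30.9% of all genes, at 22.1% to 52.8% of the mean of the other replicates. Replicate 2 was the highest in 9 of 10, the exception being GP1BB. The erythroid sum was also lowest in replicate 3 (35349, 52045 and 18821), while the macrophage sum (76357, 71327 and 83347) and the sum of 10 neutrophil granule genes (289784, 250086 and 311680) were highest there. The endothelial (10511, 11853 and 8260), mesenchymal (16400, 11538 and 7919) and pluripotent sums (1161, 1413 and 680) were lowest there too. The mast cell and eosinophil sum was lowest in replicate 2 (112675, 52079 and 77392). Their part was not tested.

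**Figure D3:**
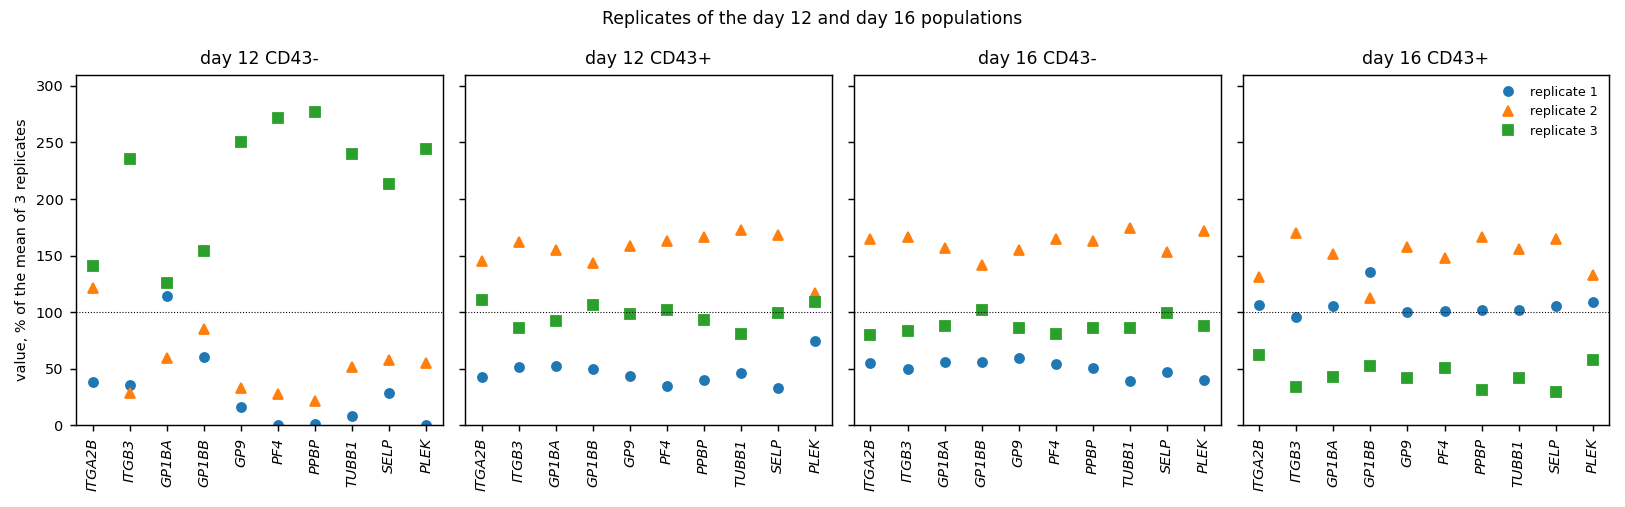
Each replicate as a percent of the mean of its population, for the 10 genes in day 12 and day 16 CD43- and CD43+ cells. The same replicate is lowest in all 10 genes in day 12 CD43+ cells (replicate 1), day 16 CD43- cells (replicate 1) and day 16 CD43+ cells (replicate 3), and replicate 3 is highest in all 10 in day 12 CD43- cells.

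Day 16 CD43- cells differed from those of day 12, and they had also been sorted on CD45, so day and sort cannot be told apart here. From day 12 to day 16, 9 of the 10 genes were called higher in CD43- cells, against 4.46% of all genes, with a median log2 fold change over the 10 of 5.11 against 0.08 over all genes tested. PF4 went from 0, 14 and 136 to 1062, 3224 and 1582 (7.11 ± 0.90, adjusted p = 4.89e-07), and PPBP from 1, 20 and 252 to 1124, 3606 and 1902 (6.49 ± 1.08). TUBB1 went from 1, 6 and 28 to 241, 1077 and 530, and GP9 from 2, 4 and 30 to 352, 921 and 511. Among the receptors, ITGA2B went from 108, 342 and 398 to 1332, 3984 and 1930, ITGB3 from 40, 32 and 262 to 634, 2126 and 1062 and GP1BA from 42, 22 and 46 to 244, 684 and 384. In all 9 genes called every day 16 value lay above every day 12 value, as in 26.6% of all genes, and PLEK alone lost its call in a fit of these populations only (4.75, adjusted p = 0.104). All 9 calls held with any 1 replicate left out. Without day 12 CD43- replicate 1 the differences were 5.28 for PF4, 4.76 for PPBP, 2.71 for PLEK, 5.47 for GP9, 5.18 for TUBB1 and 2.55 for ITGA2B. Without day 12 CD43- replicate 3 they were 8.83 for PF4, 8.25 for PPBP, 6.31 for PLEK, 7.15 for GP9, 7.11 for TUBB1, 6.18 for SELP and 4.94 for ITGB3. GP1BB was the exception, with 52, 73 and 132 on day 12 and 62, 156 and 112 on day 16 (0.37 ± 0.59, adjusted p = 0.643).

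Other genes of blood cells in the same day 16 CD43- samples are given for comparison. The 10 platelet genes stood at 6.3% (PLEK) to 24.6% (ITGA2B) of their CD43+ level, with a median of 12.3%, after a median of 1.35% on day 12. SPN was at 6.67% and PTPRC at 0.216% of theirs. The median over 10 macrophage markers was 0.329%, that over 10 neutrophil granule genes 3.73% and that over the 9 mast cell and eosinophil markers with a CD43+ mean of at least 100 2.74%. The 9 erythroid markers with such a mean had a median of 19%, from 3.02% (GYPB) to 401% (HBZ). HBG2, the erythroid marker with the highest CD43+ mean, was at 12.1%. None of the 14 erythroid, 10 macrophage and 10 neutrophil markers was at 0 in all 3 day 16 CD43- replicates. Their summed levels were 5775 to 9559, 1553 to 2162 and 7456 to 27133.

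**Figure D4:**
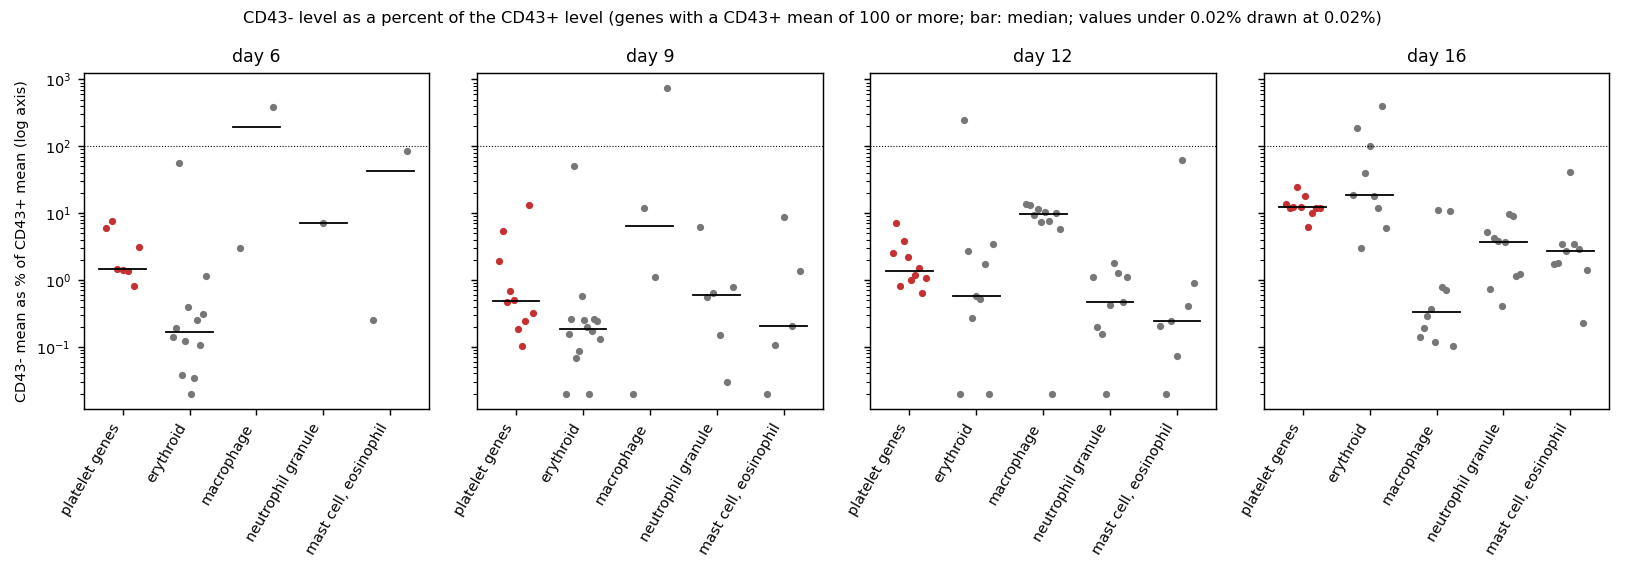
CD43- mean as a percent of the CD43+ mean (log axis) for each of the 10 genes and for genes of 4 blood marker lists, on days 6, 9, 12 and 16, for genes with a CD43+ mean of at least 100; the bar is the median, and values near 0 are drawn at the lower edge. The platelet genes go from a median of 0.485% on day 9 to 12.3% on day 16, where macrophage markers have a median of 0.329%.

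The day 16 CD43- replicates also ranked alike. Replicate 1 was the lowest and replicate 2 the highest of the 3 in all 10 genes, against 31.4% and 31.2% of all genes. SPN had the same order (84, 328 and 122), as had PTPRC (18, 42 and 22) and the neutrophil granule sum (7456, 27133 and 15574). The macrophage (1553, 2162 and 1869), mast cell and eosinophil (1220, 4930 and 2519) and endothelial sums (70345, 84989 and 84809) shared that order. The erythroid (5775, 8233 and 9559), mesenchymal (328321, 325866 and 332036) and pluripotent sums (1498, 1173 and 1535) did not. In day 12 CD43- cells, replicate 3 was the highest in all 10 genes, against 26.9% of all genes. It was also the highest for SPN (122, 120 and 235), PTPRC (4, 197 and 371) and the neutrophil granule sum (124, 928 and 8440). The erythroid (609, 1035 and 1322) and macrophage sums (435, 6256 and 8086) were highest there as well. So were the mast cell and eosinophil (173, 364 and 987) and mesenchymal sums (318988, 315861 and 321353). The endothelial (51479, 61445 and 45652) and pluripotent sums (3349, 1066 and 1163) were not. The part of blood cells within the CD43- samples was not tested.

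The gap between CD43+ and CD43- cells was narrower on day 16 than on days 6, 9 and 12 for 8 of the 10 genes. All 10 were still higher in CD43+ cells, against 12.2% of all genes, with log2 fold changes from 2.11 ± 0.45 (ITGA2B, adjusted p = 0.000178) to 4.14 ± 1.01 (PLEK, adjusted p = 0.000738) and a median of 2.90. For PPBP and SELP the day 6 gap was smaller, at 1.30 and 1.42. Set against the day 9 gap in an interaction test, the day 16 gap was smaller for 8 of 10 genes, against 5.15% of all genes, from -6.53 for PF4 to -2.86 for GP1BA. GP1BB (-1.20, adjusted p = 0.278) and SELP (-0.89, adjusted p = 0.576) were not called. Without day 16 CD43+ replicate 2, ITGA2B (1.88), PF4 (2.13) and PPBP (2.67) were no longer called on day 16. Without day 16 CD43- replicate 1, ITGA2B (1.76) and PF4 (2.12) were not. With a pseudocount of 0.1, PF4 and PPBP were not called (adjusted p = 0.0921 and 0.0935). Nor was the change of the PPBP gap from day 9 to day 16 (-5.41, adjusted p = 0.0749). Without day 16 CD43+ replicate 3 the day 16 differences were 3.53 for ITGB3, 3.88 for PPBP and 3.6 for SELP, and the changes from day 9 were -4.12 for ITGB3 and -4.28 for PPBP.

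**Figure D5:**
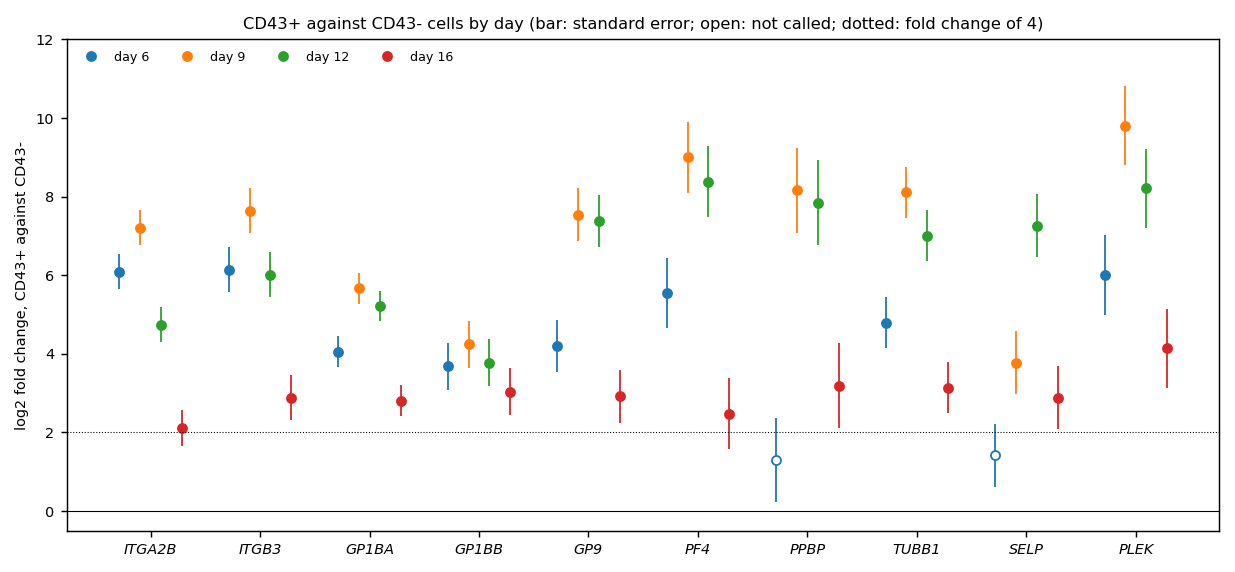
Log2 fold change of CD43+ against CD43- cells on days 6, 9, 12 and 16 for each gene, with its standard error; filled points were called and the dotted line marks a fold change of 4. Only PPBP and SELP on day 6 are open, and the day 16 values lie between 2.11 and 4.14.

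Other genes of the megakaryocyte and platelet were taken from lists, chosen with earlier results of these data known. They are counted here on day 9, when the platelet genes first were all called. Of all genes tested on that day, 8.65% were called higher in CD43+ cells and 12.8% lower, with a median log2 fold change of 0.24. Of 14 transcription factors of the lineage, 7 were higher in CD43+ cells and none was lower, against 8.65% and 12.8% of all genes, with a median log2 fold change of 1.90. GATA1, which drives erythroid and megakaryocyte genes, was 3858, 3487 and 3720 in CD43+ cells (8.92 ± 0.62). GFI1B, a repressor needed for platelet granules, differed by 8.17, and NFE2, which TUBB1 depends on in megakaryocytes, by 7.11. GATA1 was lower against its day 9 level on day 16, at 1582, 2210 and 870, in the replicate order of the platelet genes.

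Of 25 other platelet surface receptors, 15 were higher on day 9 and none was lower, against the same shares of all genes, with a median of 3.32. LY6G6F was 729, 709 and 845 and TREML1, a receptor of the alpha-granule membrane, 317, 239 and 322, both listed at 0 in every CD43- replicate of that day. CD226 differed by 8.10. GP5 and the collagen receptor GP6, chosen after their values were seen, differed by 6.97 and 5.93. On day 16 the largest differences were in CD36 (8.96) and FCER1G (5.21), which macrophages also express. Their lowest day 16 CD43+ values, 9900 and 3460, were in replicate 2, where the platelet genes other than GP1BB were highest.

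The remaining genes listed as alpha-granule cargo did not move as one. Of 23 genes, 5 were higher in day 9 CD43+ cells and 4 lower, against 8.65% and 12.8% of all genes, with a median of -0.05 against 0.24. PF4V1, the near-copy of PF4, was 323, 380 and 359 in CD43+ cells and listed at 0 in every CD43- replicate, SRGN, the proteoglycan that binds PF4 in the granule, differed by 7.57, and F13A1, the factor XIII subunit, by 7.10. VWF, which endothelial cells also make, was lower in CD43+ cells (238 ± 54 against 2117 ± 738, SD, n = 3, chosen after its values were seen). Of 20 genes for the formation and release of granules, 7 were higher and none lower, among them RAB27B (7.34), SLC35D3 (5.21) and ABCC4 (5.19).

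Of 20 cytoskeleton genes, 7 were higher and 2 lower on day 9, against 8.65% and 12.8% of all genes. WAS and FERMT3, the kindlin that activates integrins, differed by 6.77 and 5.72, while TPM1 was lower by a log2 fold change of -4.70. The tubulins split. TUBB1 was higher by 8.11, and of the 7 other beta-tubulins TUBB2B (-4.54), TUBB2A (-3.28) and TUBB3 (-2.88) were lower and 1, TUBB4A, was higher (2.31, chosen after its value was seen). The integrin subunits split as well: of 9 others, ITGAM (5.76), ITGB2 (3.92) and ITGA4 (3.29) were higher and 3 were lower, including ITGAV (-3.43), the other alpha subunit that pairs with ITGB3. Of 20 signalling genes 12 were higher and 1 lower, led by RGS18 (8.85), BIN2 (8.68) and FYB (7.70). Of 6 thromboxane and lipoxygenase enzymes 5 were higher, led by ALOX12 (7.42) and PTGS1 (6.25), the cyclooxygenase that aspirin blocks in platelets.

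PF4 and PPBP lie in a cluster of CXC chemokine genes. A further 8 genes of the region were counted, not all of which encode chemokines. Of these, 1 was called higher in CD43+ cells of day 6, against 4.68% of all genes. That number was 3 for day 9, against 8.65%, 4 for day 12, against 11.8%, and 7 for day 16, against 12.2%. CXCL8, a neutrophil attractant, was 2918, 1867 and 8800 in day 16 CD43+ cells and 20, 18 and 22 in CD43- cells. It was highest in replicate 3, where PF4 (5482) and PPBP (6913) were lowest. Of the 3 genes of the other selectins and their ligand, SELE, the endothelial selectin, was lower in day 9 CD43+ cells (-5.42) and SELPLG, the ligand of P-selectin, higher (4.94).

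Over the 33 replicated samples, the 45 pairs of the 10 genes had correlations of log2 values from 0.641 to 0.979, with a median of 0.902. The samples share their populations, and this is a description across them. ITGB3 and GP1BA were most like C6orf25, which encodes the platelet receptor G6b (r = 0.981 and 0.974). GP9 was most like RGS18 (0.989), and RGS18 was also among the 3 genes most like TUBB1 (0.97) and PF4 (0.949). ITGA2B was most like MFSD2B, BLVRB and P2RX1 (0.966, 0.96 and 0.959), and PF4 was most like DGKI (0.95). TUBB1 was most like CD2 (0.973). PPBP was most like BIN2, with PRTN3 and PRG3, genes of neutrophil and eosinophil granules, next (0.968, 0.968 and 0.966). PLEK was most like NCF4 and CD84 (0.975 and 0.97), GP1BB most like CETP (0.947) and SELP most like FBXO7 (0.944).

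For 5 of the genes, reads could be shared with other genes. How the authors' counting treated strand and overlapping or similar genes is not stated. TUBB1 shares 1188 exonic bases, 34%, with ATP5F1E (ATP5E in the table) on the opposite strand, and ATP5E was 1804 to 2747 in both day 9 populations while TUBB1 was 8 to 10 in CD43- and 1972 to 3484 in CD43+ cells. GP1BA shares 97 bases, 3.9%, with CHRNE on the opposite strand. CHRNE was also called on days 6 and 9 (log2 fold changes of 2.55 and 3.04), at 202 ± 26 in day 9 CD43+ cells (SD, n = 3), and not on days 12 and 16 (0.63 and 0.98). ITGB3 shares 2266 bases, 51.6%, with the protein-coding gene AC068234.1 on its own strand, which is not among the genes with deposited values. SEPT5, which overlaps GP1BB, was not called between CD43+ and CD43- cells on any day (0.45 to 0.90). PF4V1, the near-copy, could share reads with PF4, and its highest value in any sample was 448.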

How the data were processed

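RNA of 34 samples of H1 cells was sequenced. The authors used bowtie2, RSEM with an Ensembl annotation, and EDASeq, and the labels' processing notes name STAR 2.7, bcl2fastq, Bowtie2, RSEM and hg38, without their roles. What was deposited is a tag count normalized for GC content and then rounded, so it was handled as a score and not as a raw count. Beside it the authors deposited the GC percent of each gene, which entered no test. Because each sample holds the same set of numbers in a different order, depth is unknown, and error could be taken from the replicates only. Labels name no batch. The authors name RiboBio and Annoroad Gene Technology as sequencing providers, without giving the samples that each sequenced.

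The test was limma 3.58.1 (R 4.3.3, eBayes with a trend) on log2(value + 1). One model without a block held the 33 replicated samples and 19788 genes, after 467 genes that did not reach 10 in 3 samples were dropped. Benjamini-Hochberg adjustment ran over those genes in each of 17 comparisons. Such fold changes understate the change of low genes. No exact permutation test was run, since 3 against 3 samples cannot give less than p = 0.1. The model was tested on simulated data. It was repeated with pseudocounts of 0.1 and 10, no filter, a filter at 100, median-of-ratios scaling, the compared populations alone, the replicate number as a block, and each replicate left out.

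CD43+ and CD43- samples of the same number deviated together on day 6 (correlations across genes of 0.198, 0.109 and 0.199). The correlations were positive but lower on day 9 (0.017, 0.078 and 0.038) and day 12 (0.084, 0.108 and 0.039). On day 16 they were -0.015, 0.025 and 0.042. Numbers were taken as possible pairs on day 6, where the correlations were highest. A block within the day 6 samples was added after the data were seen. The p-values given for day 6 come from the model without a block.

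The members, gene lists and rules were chosen with earlier results of these data known. From each list the text could name the 3 genes with the largest change on day 9 and the 2 on day 16, among those called without overlap. It could also name the 3 genes most like each member, overlapping genes and markers of other cells. For any other gene the text states that its values were known when it was picked. Positions are those of the deposited table (GRCh38), overlaps are from GENCODE v29 and promoters from RefSeq (GRCh38.p14). The undifferentiated sample entered no test.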

Additional observations from a re-analysis of the deposited data

Results flagged for a closer look

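The difference between CD43+ and CD43- cells changed between days in 11 cases, each tested as an interaction in the fit across all genes.

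From day 6 to day 9 the difference grew for 3 genes, by log2 fold changes of 3.33 for GP9, 6.86 for PPBP and 3.32 for TUBB1. In all 3 the CD43- values stayed between 0 and 10 on both days, and the CD43+ values went from 1 to 253 on day 6 to 652 to 3484 on day 9. From day 9 to day 16 it shrank for 8 genes: ITGA2B (-5.10), ITGB3 (-4.75), GP1BA (-2.86), GP9 (-4.62), PF4 (-6.53), PPBP (-4.97), TUBB1 (-4.97) and PLEK (-5.67). In each of the 8, all day 16 CD43- values lay above all day 9 CD43- values. With a pseudocount of 0.1, the gains of PPBP (adjusted p = 0.124) and GP9 (adjusted p = 0.052) were not called. The shrinking for PPBP was not called either (adjusted p = 0.0749). No cause was tested, and the day 16 sort also used CD45.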

How the results depend on the processing

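Of 1820 gene values recomputed under alternatives, 1771 kept their direction and their side of the threshold. The number of the 10 genes called changed by over 1.5 times in these cases, and where nothing else is said the cause was not tested. With a pseudocount of 10, 0 genes were called from day 0 to day 2, 0 from day 2 to day 4, 1 in day 6 CD43- cells against day 4, 1 in CD43+ cells from day 9 to day 12 (PPBP, higher) and 5 for the gain of the CD43 gap from day 6 to day 9. With a pseudocount of 0.1, 0 were called in CD43- cells from day 6 to day 9 and 1 for that gain, and PF4 and PPBP lost their day 16 call (adjusted p = 0.0921 and 0.0935). With only the populations compared, 1 was called in CD43+ cells from day 9 to day 12, 0 from day 12 to day 16, 0 in CD43- cells from day 6 to day 9, 0 from day 9 to day 12 and 5 for the gain. Median-of-ratios scaling moved the median of all genes by -0.1392 and -0.2064 in the CD43 comparisons of days 6 and 9, by 0.1497 and 0.1595 in CD43+ cells from day 9 to days 12 and 16 and by 0.1739 in the change of the gap from day 9 to day 16. Under it SELP alone changed its call, in day 6 CD43- cells against day 4 (2.04, called).

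With the replicate number as a block, 0 genes were called in CD43- cells from day 6 to day 9 (SELP, adjusted p = 0.0512), and 8 stayed the number on day 6, also in a block within the day 6 samples. The block changed no other count by over 1.5 times.

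With 1 replicate left out, 0 to 1 genes were called in CD43+ cells from day 9 to day 12, 0 to 2 from day 12 to day 16, 0 to 1 in CD43- cells from day 6 to day 9, 1 to 3 from day 9 to day 12 (3 without day 12 CD43- replicate 1) and 2 to 4 for the gain from day 6 to day 9. A direction turned for values that were not called: in CD43+ cells GP9 from day 9 to day 12 (-0.68 to 0.25), ITGA2B (-0.01 to 0.86) and GP1BB (-0.81 to 0.04) from day 12 to day 16, and ITGB3 (-1.06 to 0.1) and SELP (-0.14 to 1.09) from day 9 to day 16, and SELP in the change of the gap from day 9 to day 16 (-1.89 to 0.3). Depth is unknown, so counting error has no part in any limit given.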
